A study of Arabidopsis thaliana with 4 samples.

Results

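Transcript levels of a set of nuclear genes for the light-harvesting antenna, LHCB4.2 (AT3G08940), LHCA1 (AT3G54890), LHCA4 (AT3G47470) and LHCA6 (AT1G19150), were read from total RNA of Arabidopsis seedlings that carry the eif3h-1 mutation and of wild-type seedlings. The genes were taken by their locus numbers. For each, 1 named probe set was read. These are 4 of the 22746 probe sets of the Affymetrix ATH1 array that remain without the control spots. The eif3h-1 allele carries a T-DNA insertion in the gene for the h subunit of translation initiation factor eIF3 and gives rise to a protein that lacks its carboxyl terminus, and it stands here as a single mutant line. Seedlings of both genotypes were grown for 10 days on agar with sucrose under continuous light, and the pooled aerial parts were harvested. Each of 2 experimental repeats, prepared on different days, gave 1 array of the eif3h mutant and 1 array of the wild type.

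Antenna proteins bind chlorophyll and carotenoids in the thylakoid membrane and pass absorbed light energy on to the reaction centres of photosystem II (LHCB proteins) and photosystem I (LHCA proteins). They are encoded in the nucleus, made in the cytosol and imported into the chloroplast, where their stability depends on newly made chlorophyll. Transcripts of this family are known to be abundant in green tissue and to follow light, the circadian clock and signals from the plastid. LHCB4.2 encodes an isoform of CP29, a minor antenna protein between the core of photosystem II and its trimeric antenna. LHCA1 and LHCA4 bind each other as a pair in the antenna belt of photosystem I, whereas LHCA6 is a minor member known for attaching the plastid NDH complex to photosystem I.

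Signals are those deposited from MAS 5.0, an intensity for each probe set on a linear scale that had been scaled to the same trimmed mean on each array. The brightest probe sets were tested on the log2 scale with limma in a model that pairs the arrays of a repeat, and calls were made below 0.05 after Benjamini-Hochberg adjustment over all of them. All of the 4 antenna genes were bright enough to be tested. Fold changes are given as mutant minus wild type on the log2 scale unless another form is named. The mutated gene itself (TIF3H1, AT1G10840) gave a signal of 245 and 432 on the mutant arrays and of 1363 and 1020.5 on the wild-type arrays of repeats 1 and 2. Markers of other organs and cells could be checked only in part. Of 7 root markers 3 had a named probe set, with summed signals of 6805 and 7337 in the mutant and 6442 and 11170 in the wild type, nearly all from PYK10. The root hair genes EXPA7 and EXPA18 stayed at 217 or below on every array, below the limit for testing. Of 5 guard cell and epidermis markers 2 were named, with summed signals of 1234 and 1041 in the mutant and 2081 and 2088 in the wild type. The difference came from the epidermal gene ATML1 (940 and 717 against 1775 and 1734), which was called lower with a log2 fold change of -1.10 and was named only through the study's list of lower transcripts. The guard cell gene FAMA gave 294.5 and 324 in the mutant and 306 and 355 in the wild type. The 1 meristem marker of 4 that was named, KNAT1, gave 499.5 and 322 in the mutant and 244 and 173 in the wild type. KNAT1 was named only through the study's list of translationally inhibited genes. Both FAMA and KNAT1 lay below the limit for testing. None of the named markers was at 0, none of 4 vascular markers had a named probe set, and the part that these cells have in the results was not tested. In such bulk samples fewer cells of a type and less RNA per cell cannot be told apart.

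LHCB4.2 fell in the eif3h mutant to a level 3.64-fold below that of the wild type, and LHCA6 fell 2.27-fold. LHCA1 and LHCA4 lay 1.35-fold and 1.33-fold lower, and neither passed the test. So 2 of the 4 genes were called lower and none higher, where 9.68% of all tested probe sets were called lower and 8.49% higher. The same 2 genes passed the study's rule of at least 2-fold, which 3.76% of the tested probe sets passed in this direction. LHCB4.2 and LHCA6 stand in the study's list of genes with a lower transcript level, which was drawn from these same arrays. LHCA1 and LHCA4 stand, with LHCB4.2, in its list of translationally stimulated genes. LHCA1, LHCA4 and LHCA6 could be named only through these lists, and LHCA6 only through that of lower transcripts. The shares over all tested probe sets are thus no equal comparison for them. The calls on LHCB4.2 and LHCA6 are therefore not independent evidence of a direction.

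**Figure D1:**
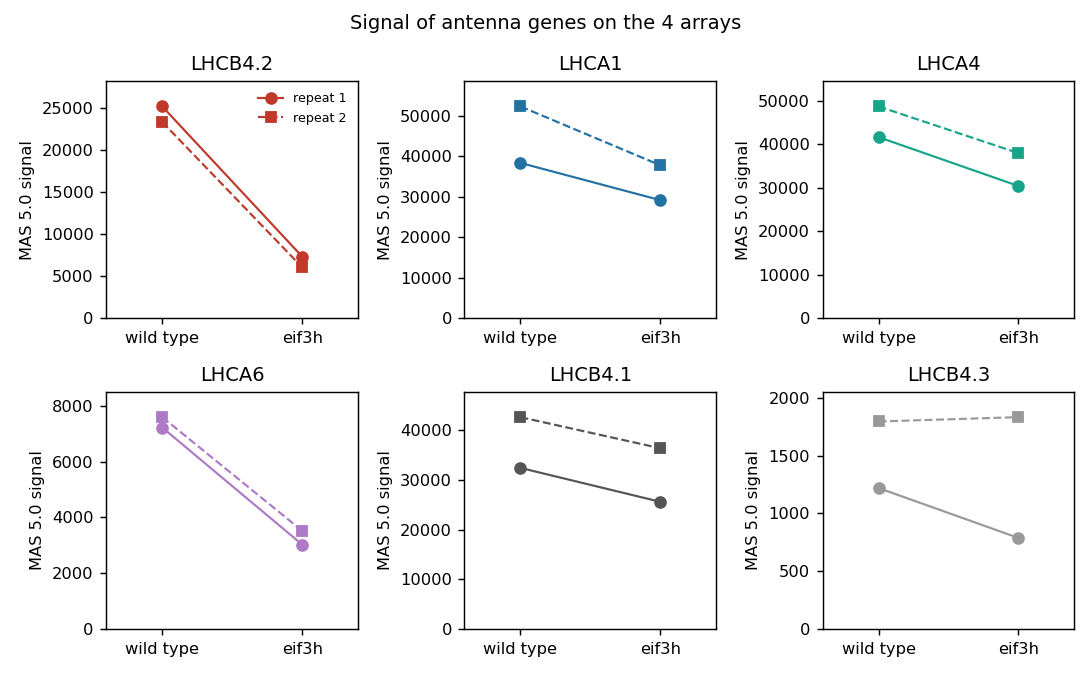
MAS 5.0 signal (linear axis from 0, scaled to each gene) of the 4 antenna genes and of LHCB4.1 and LHCB4.3 on the wild-type and eif3h arrays. Each line joins the 2 arrays of a repeat (circles and solid line, repeat 1; squares and dashed line, repeat 2), and relative to the wild-type signal LHCB4.2 and LHCA6 drop the most in repeat 1 and in repeat 2.

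For LHCB4.2, on chromosome 3, the mutant gave a signal of 7336 against 25215 in the wild type in repeat 1, and of 6058 against 23361 in repeat 2. Both mutant arrays thus lay far below both wild-type arrays, and the repeats differed little within a genotype. The wild type was 3.44-fold higher in repeat 1 and 3.86-fold higher in repeat 2. The log2 fold change, mutant minus wild type, was -1.86 (standard error 0.17, 95% interval -2.27 to -1.46, adjusted p = 0.00121 from limma, lower in 2 of 2 repeats). Of all tested probe sets, 72 had a lower log2 fold change. The call was kept without the replicate block (adjusted p = 0.0312 from limma) and, in fits without the block, when any of the 4 arrays was left out (adjusted p from 0.0227 to 0.0451). It was lost when limma was run over all 22746 probe sets (adjusted p = 0.414), a setting that called 0 probe sets while 2683 had an unadjusted p under 0.05.

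LHCB4.1 (AT5G01530) and LHCB4.3 (AT2G40100) encode the other CP29 proteins, and neither passed the test. LHCB4.1 gave signals of 25587 and 36373 in the mutant and 32418 and 42635 in the wild type, so that the genotypes overlapped. Its log2 fold change was -0.29 (95% interval -0.69 to 0.12). LHCB4.3 gave 787 and 1832 in the mutant and 1219 and 1795 in the wild type, with log2 ratios of -0.63 in repeat 1 and 0.03 in repeat 2. The log2 ratio of LHCB4.2 minus that of LHCB4.1 was -1.44 in repeat 1 and -1.72 in repeat 2, a mean difference of -1.58 ± 0.20 (SD, n = 2 repeats). Against LHCB4.3 the difference was -1.56 ± 0.58 (SD, n = 2). No test of these differences between genes was run, and the values do not show that LHCB4.1 or LHCB4.3 did not change.

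LHCA6, on chromosome 1, gave mutant signals of 3024 and 3519 and wild-type signals of 7223 and 7595 in repeats 1 and 2. Each genotype kept to a narrow range. The genotypes did not overlap in any of the 4 antenna genes, as was the case, with both mutant arrays below, for 23.9% of all tested probe sets (both above, 28.4%). The log2 ratio was -1.26 in repeat 1 and -1.11 in repeat 2, and the log2 fold change was -1.18 (standard error 0.17, 95% interval -1.59 to -0.78, adjusted p = 0.00625 from limma). The call on LHCA6 was lost in a fit of all probe sets (adjusted p = 0.414), in a fit without the replicate block (adjusted p = 0.067) and when any 1 array was left out in fits without the block (log2 fold change from -1.29 to -1.07, adjusted p from 0.0987 to 0.233, all from limma).

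LHCA1, on chromosome 3, gave mutant signals of 29164 and 37780 and wild-type signals of 38361 and 52316 in repeats 1 and 2. Its log2 fold change was -0.43 (standard error 0.17, 95% interval -0.83 to -0.03, adjusted p = 0.117 from limma). LHCA4, also on chromosome 3, gave mutant signals of 30374 and 37934 and wild-type signals of 41605 and 48658, and its log2 fold change was -0.41 (standard error 0.17, 95% interval -0.81 to -0.0034, adjusted p = 0.136). For both genes the wild-type array of repeat 1 lay close above the mutant array of repeat 2, while within a repeat the mutant was the lower by a wider margin. With an intensity trend in the prior variance limma called both of them lower (adjusted p = 0.00961 for LHCA1 and 0.0127 for LHCA4). Under quantile normalization their log2 fold changes shrank to -0.17 and -0.09.

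The sizes of the changes in LHCA1 and LHCA4 were close to each other, and differed by -0.03 ± 0.12 on the log2 scale (SD, n = 2 repeats). LHCA6, the third gene for a photosystem I antenna protein, had a log2 ratio that differed from that of LHCA1 by -0.86 in repeat 1 and -0.64 in repeat 2, and from that of LHCA4 by -0.80 and -0.75. The log2 ratio of LHCB4.2 in turn differed from that of LHCA6 by -0.53 in repeat 1 and -0.84 in repeat 2. The order of the log2 fold changes, from LHCB4.2 through LHCA6 to LHCA1 and LHCA4, was thus kept in both repeats, apart from the last pair, which changed places. No test of these differences was run.

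**Figure D2:**
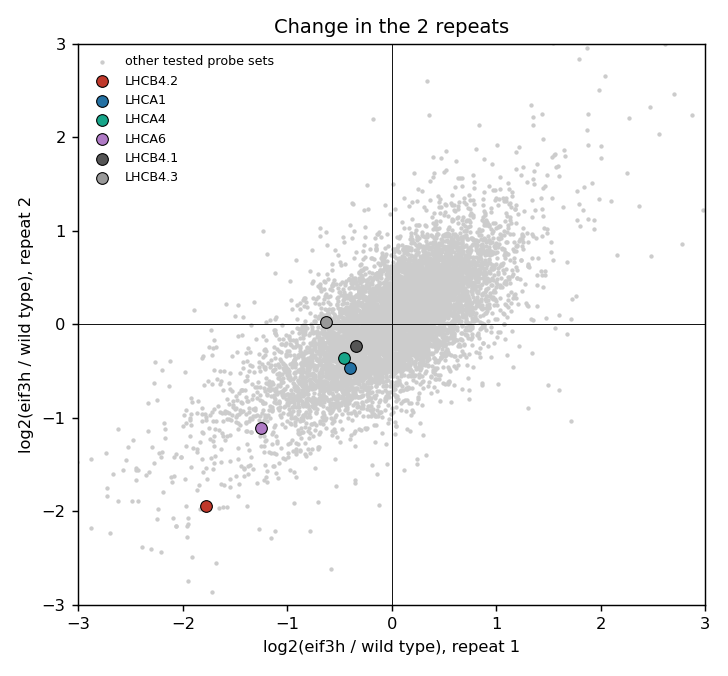
Log2 ratio of eif3h to wild type in repeat 2 against that in repeat 1 for the tested probe sets (grey), with the 4 antenna genes, LHCB4.1 and LHCB4.3 in colour; 48 probe sets lie outside the axes. LHCB4.2 stands at -1.78 and -1.95 and LHCA6 at -1.26 and -1.11, while LHCA1, LHCA4 and LHCB4.1 lie together between -0.47 and -0.23 in both repeats.

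The genes also differed between the repeats in both genotypes. From repeat 1 to repeat 2 the log2 signal of LHCA1 differed by 0.37 in mutant and 0.45 in wild-type arrays, and that of LHCA4 by 0.32 and 0.23. For LHCA1 these values are about as large as the difference between the genotypes. LHCA6 differed less, by 0.22 and 0.07, and LHCB4.2 was lower in repeat 2, by -0.28 and -0.11. Both arrays of a repeat share a scan day and a scanner and the 2 repeats do not, so the days, the scanners and the RNA preparations cannot be told apart.

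LHCA1 and LHCA4 belong to the probe sets of very high signal, and these lay lower in the mutant as a group. Of 111 tested probe sets with a geometric mean signal of at least 16000, 73.0% were lower in the mutant in both repeats, against 34.7% of all tested probe sets. Their median log2 fold change was -0.25, against 0.03 over all tested probe sets, and 7.21% of them were called lower. Within these 111, 20 probe sets had a lower log2 fold change than LHCA1 and 23 a lower one than LHCA4. Under quantile normalization the median of the 111 was -0.05, and without eif3h replicate 1 or without WT replicate 2, in fits without the block, it was -0.0066 and -0.014, and without eif3h replicate 2 or WT replicate 1 it was -0.475 and -0.443. Of 594 probe sets with a mean signal from 4000 to 16000, which hold LHCB4.2 and LHCA6, the median was 0.0093 and 11.8% were called lower. In this class 5 probe sets had a lower log2 fold change than LHCB4.2 and 18 a lower one than LHCA6. The limits of these classes were set after the values had been seen, and the part that scaling has in the values of LHCA1 and LHCA4 was not tested further.

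**Figure D3:**
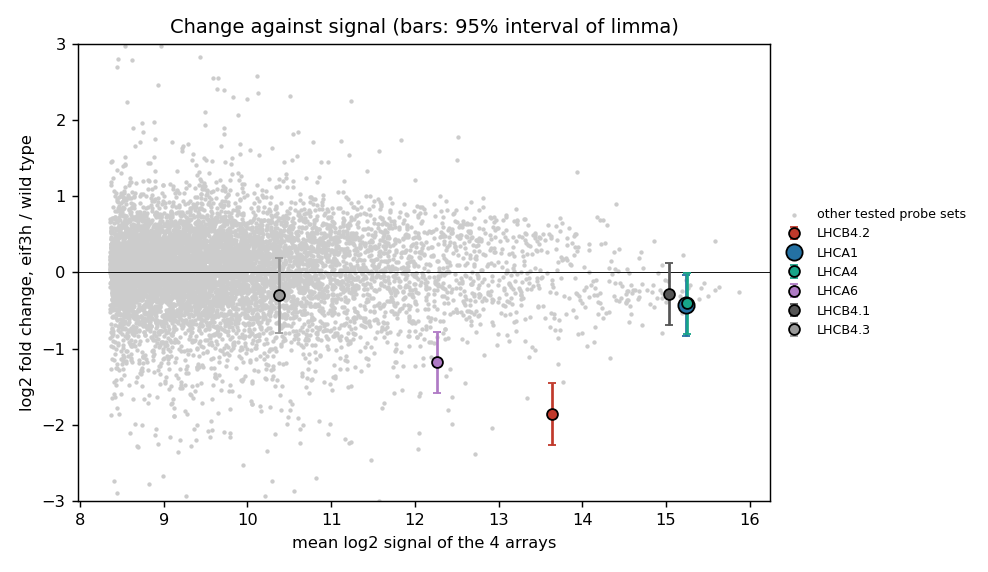
Log2 fold change (eif3h over wild type) against the mean log2 signal of the 4 arrays for the tested probe sets (grey; 26 lie outside the vertical axis), with 95% intervals from limma for the 4 antenna genes, LHCB4.1 and LHCB4.3. LHCA1 and LHCA4 almost coincide at the right, within the other bright probe sets, whereas LHCB4.2 and LHCA6 lie at the lower edge of the probe sets with similar signals.

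The proteins related to the antenna, which hold chlorophyll-binding helices of the same kind, differed in direction. Of 9 such genes 5 had a named probe set. In limma's test 3 of them were lower, 1 was higher and 1 was not called, where 9.68% of all tested probe sets were lower and 8.49% higher. OHP2 (AT1G34000), a small single-helix protein that takes part in the assembly of photosystem II, fell from 5534 and 5982 in the wild type to 1624 and 1905 in the mutant, with a log2 fold change of -1.71 (adjusted p = 0.00177 from limma). SEP2 (AT2G21970), a stress-enhanced protein, fell with a log2 fold change of -1.16. ELIP1 (AT3G22840), an early light-induced protein of photoprotection, rose, with signals of 2262.5 and 879 in the mutant and 476 and 287 in the wild type and a log2 fold change of 1.93. Its value ran from 1.25 without eif3h replicate 1 to 2.61 without eif3h replicate 2, in fits without the block, and the call was kept only in the latter of the 4 fits that leave out an array. All of these 3 genes were named through the study's lists of transcripts changed on these arrays and are a selected group.

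LIL3:1 (AT4G17600) and LIL3:2 (AT5G47110), light-harvesting-like proteins that hold enzymes of chlorophyll synthesis at the membrane, were named without those lists. LIL3:1 gave signals of 3034 and 3201 in the mutant and 5377 and 5870 in the wild type, and fell with a log2 fold change of -0.85 (adjusted p = 0.0178 from limma). LIL3:2 did not pass, with log2 ratios of 0.09 in repeat 1 and -0.52 in repeat 2. In this pair, as among the CP29 genes, a single gene was called, which does not by itself show a difference between the genes. The log2 ratio of LIL3:1 minus that of LIL3:2 was -0.91 in repeat 1 and -0.36 in repeat 2. This difference was not tested. Without the replicate block OHP2 was the only one of the 5 genes that stayed called, and without eif3h replicate 1 it too lost its call (adjusted p = 0.0898 from limma).

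Genes of chlorophyll synthesis, the pigment that the antenna proteins bind, were lower in part. Of 25 genes on the list 10 had a named probe set and 9 were tested, and limma called 4 of these lower, none higher and 5 not at all, beside 9.68% lower and 8.49% higher over all tested probe sets. The median over the 9 was -0.44 on the log2 scale, beside 0.03 over all tested probe sets. Of the 8 that the platform annotation names, which leaves out GUN4, 3 were called lower, with a median of -0.41. The called genes were GUN4 (AT3G59400), an activator of magnesium chelatase, with a log2 fold change of -1.17, CHLM (AT4G25080), the methyltransferase that follows the chelatase, with -0.91, HEME1 (AT3G14930), a uroporphyrinogen decarboxylase, with -0.87, and CHLI2 (AT5G45930), a subunit of magnesium chelatase, with -0.67. CHLM gave signals of 4760.5 and 4458 in the mutant and 8604 and 8706.5 in the wild type, without overlap. PORB (AT4G27440), the light-dependent protochlorophyllide reductase, had values above 0 in both repeats, with a log2 fold change of 0.33, and did not pass (adjusted p = 0.216 from limma). PORB was chosen after its values were seen. GUN4 could be named only through the study's list of lower transcripts, and its value ran from -1.72 without eif3h replicate 1 to -0.63 without eif3h replicate 2. With any 1 array left out, in fits without the block, CHLM ran from -0.96 to -0.86, HEME1 from -0.98 to -0.76 and CHLI2 from -0.82 to -0.51. Without the replicate block alone all of the 4 calls were lost. Under quantile normalization CHLI2 lost its call as well (adjusted p = 0.0529 from limma). Of 2 named genes of chlorophyll breakdown, CLH1 (AT1G19670), a chlorophyllase on that same list, fell with -1.06, and NOL (AT5G04900), with -0.07, did not pass.

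The reaction centres that the antenna feeds, and the reactions that follow, gave no call, and among the following genes PGRL1B alone had a log2 fold change above 0. Of 12 nuclear genes of the photosystem I core 3 were named, with log2 fold changes of -0.41 for PSAE1 (AT4G28750), -0.32 for PSAG (AT1G55670) and -0.29 for PSAN (AT5G64040). Of 12 of photosystem II 3 were named, with -0.40 for PSB27 (AT1G03600), -0.28 for PSBW (AT2G30570) and -0.14 for PSBY (AT1G67740). Of 13 for electron transport and ATP synthase 3 were named, with -0.34 for FNR2 (AT1G20020), -0.24 for ATPC1 (AT4G04640) and 0.04 for PGRL1B (AT4G11960). Among 5 named genes of the Calvin cycle the values ran from -0.53 for FBPASE (AT3G54050) and -0.47 for PRK (AT1G32060) to -0.16 for RCA (AT2G39730), the activase of Rubisco, and none passed limma's test. As with LHCA1 and LHCA4, the intensity trend turned some of these genes into calls, namely PSAE1 (adjusted p = 0.0143 from limma), PSAG (0.0367), PSB27 (0.0348), PRK (0.0114) and FBPASE (0.012), and FBPASE was also called among the 5000 brightest probe sets (0.0408). PSAG, FNR2, FBPASE and GAPB (AT1G42970, -0.18) were named only through the study's list of translationally stimulated genes. The signals of RCA and SBPASE (AT3G55800, -0.29) were higher in repeat 2, by 0.86 and 0.44 on the log2 scale in the mutant. In the wild type they were higher by 0.93 and 0.40. Those of GAPB, ATPC1, FBPASE and FNR2 were also higher in repeat 2 in both genotypes. RCA, a marker of green tissue, gave signals from 28005 to 58204 over the 4 arrays. The named core genes of both photosystems, ATPC1, PRK, RCA and GAPB had a mean signal of at least 16000, as had LHCA1 and LHCA4. That class of bright probe sets had a median log2 fold change of -0.25, and its part in these values was not tested.

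Regulators known to act on antenna genes could be seen only as far as the study's own lists name them. GLK2 (AT5G44190), a GARP factor that activates antenna and chlorophyll genes, fell with a log2 fold change of -1.10, and the MYB factors of the clock, CCA1 (AT2G46830) and LHY (AT1G01060), fell with -1.28 and -1.25. CCA1 was also lower in repeat 2 than in repeat 1, by -1.20 in mutant and -1.15 in wild-type arrays. When any 1 array was left out, in fits without the block, CCA1 ran from -1.88 (without eif3h replicate 1) to -0.68 (without eif3h replicate 2), and CCA1, LHY and GLK2 each lost their call. They also lost it without the block alone (adjusted p = 0.237, 0.067 and 0.0941 from limma). GLK2 gave signals of 748 and 798 in the mutant and 1949.5 and 1408 in the wild type. GNL (AT4G26150), a GATA factor, had a signal of 181 and 140 in the mutant and 301.5 and 359 in the wild type and lay below the limit for testing. These 4 regulators stand in the study's list of lower transcripts, and the other 7 of the 11 sought had no named probe set.

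Over all these lists without the 4 antenna genes, 37 of 128 genes had a named probe set. Of the 23 tested that were named through the platform annotation, limma called 4 lower, none higher and 19 not at all (9.68% and 8.49% over all tested probe sets). Their median log2 fold change was -0.29, and they include bright genes of the class with a median of -0.25, such as PSAE1, PSBW and RCA. Of the 12 tested that only the study's lists name, 7 were lower and 1 was higher. The called genes stand in the study's lists of lower or higher transcripts, drawn from these same arrays, so this count is no separate evidence. The 4 not called stand only in its list of translationally stimulated genes. Without the replicate block limma called 0 of the 23 and 1 of the 12 lower, and when any 1 array was left out it called 0 of the 23 and 0 or 1 of the 12 lower. The median of the 23 then ran from -0.52 to -0.15. With the intensity trend 7 of the 23 and 9 of the 12 were called lower. Under quantile normalization 3 of the 23 were called lower and their median was -0.19. LHCA2, LHCA3, LHCA5 and 12 of the 14 further LHCB genes had no named probe set and were not analysed here.

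**Figure D4:**
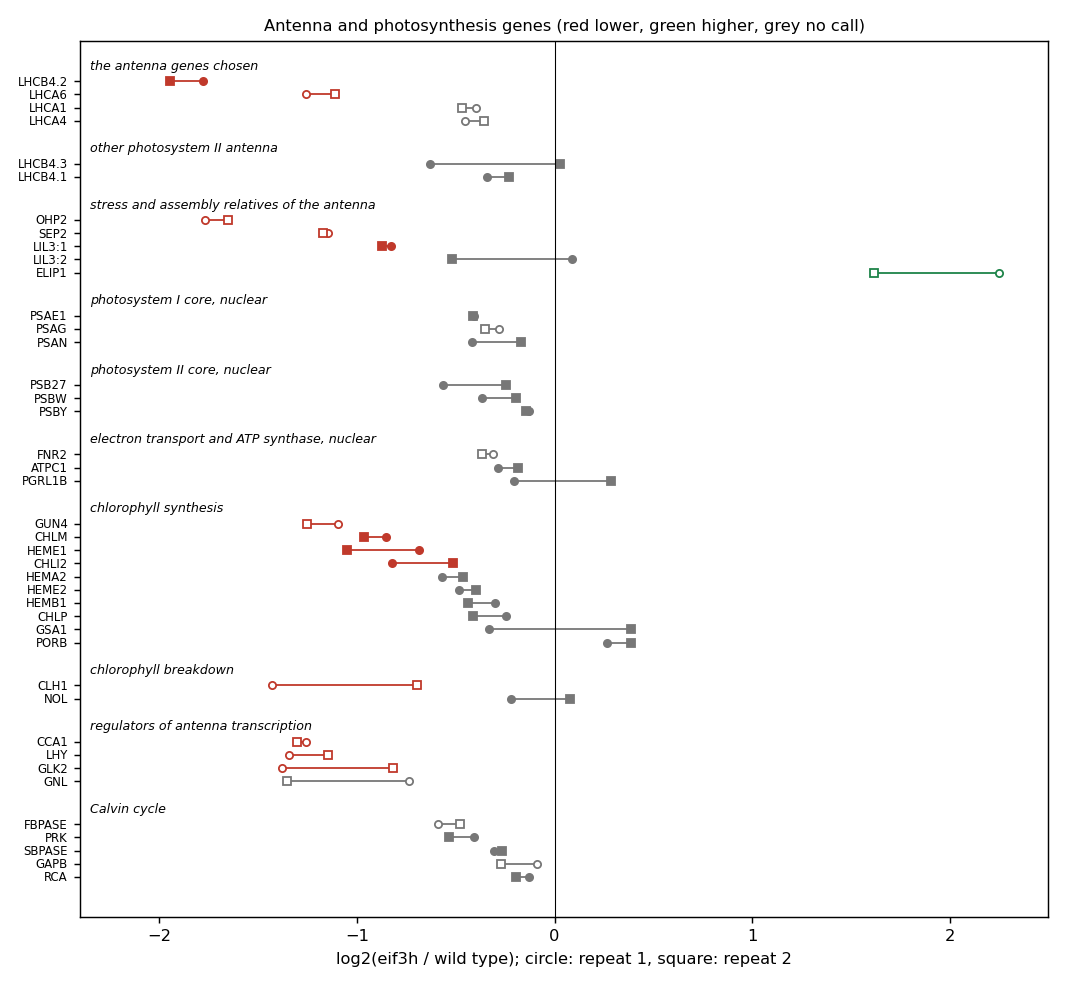
Log2 ratio of eif3h to wild type in repeat 1 (circles) and repeat 2 (squares) for the antenna genes and the listed photosynthesis genes with a named probe set. Red marks genes called lower, green those called higher and grey those without a call or below the limit for testing; open symbols are genes named only through the study's lists, which hold most of the calls.

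The genes whose signals followed those of the antenna genes most closely were sought by the distance between their log2 signals over the 4 arrays, each centred on its own mean, among the tested probe sets with 1 named gene. For LHCB4.2 the nearest were AT5G37360 (distance 0.095, log2 fold change -1.81), AT5G28500 (0.144 and -1.90) and CP5 (AT1G64720, 0.184 and -2.04). CP5 gave signals of 4297 and 3418 in the mutant and 16606 and 15013 in the wild type. For LHCA6 they were VPS2.2 (AT5G44560, 0.0635 and -1.19), CLC-A (AT5G40890, 0.0695 and -1.21) and NdhT (AT4G09350, 0.0876 and -1.25). NdhT gave 411 and 469 in the mutant and 1045 and 1040 in the wild type, and it and CLC-A were named only through the study's lists. For LHCA1 they were AT3G55080, AT5G51410 and AT4G28080, at distances of 0.0553 to 0.0698, and for LHCA4 AT1G35420, UGT71C5 (AT1G07240) and AT1G11860, at 0.0523 to 0.0709. With 4 arrays many of the tested probe sets can lie close to any such pattern by their number alone. The log2 fold changes of these neighbours follow from the way they were chosen. So does the fact that none of the 6 genes nearest to LHCA1 and LHCA4 passed limma's test.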

How the data were processed

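Total RNA of 4 samples, 2 of the eif3h mutant and 2 of the wild type, was hybridized by the authors to ATH1 arrays, and genotype and repeat were taken from the sample titles. The deposited intensity of a probe set is the MAS 5.0 signal (MAS5 in the submitters' notes), background-corrected and scaled by the authors to the same trimmed mean on each array (500.0 with 2% trimmed at each end). Detection calls were not used here. Of 22746 probe sets (64 controls left out), tests covered the 8831 of highest mean log2 signal (geometric mean at least 327). That number equals what the study kept by its detection calls, and its probe sets may be others.

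The model, in limma 3.58.1 (lmFit, eBayes; R 4.3.3), had terms for repeat and genotype (log2 signals, 1 residual and 6.58 prior degrees of freedom), since the methods form ratios within a repeat. The pairing comes from the repeat numbers in the titles and from the days, and the changes from repeat to repeat in the 2 genotypes had a correlation of 0.530 across probe sets. The array settings (deposited as other, non-numerical text) were read only for shared scan days and scanners. The fit was checked on simulated data only for the recovery of planted log2 fold changes. No limit was set there on the share of false calls.

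Gene names came from the platform annotation (13513 probe sets with 1 gene, 503 with several, 13436 matched to RefSeq by gene number); 364 were named only through the study's lists of changed genes, LHCA1, LHCA4 and LHCA6 among them. The members and gene lists were chosen with earlier results of these data known. Named genes are the 4 antenna genes, named members of the antenna and related lists, up to 4 of each other list, the 3 probe sets nearest to each antenna gene, and TIF3H1. PORB, GSA1 and RCA were named outside this rule, PORB and GSA1 after their values were seen and RCA as a marker of green tissue. The markers checked were those of root, meristem, guard cell and epidermis, and vascular tissue. The alternatives were no replicate block, quantile normalization, median centring, all probe sets, the 5000 brightest, log2(signal + 50), an intensity trend, the study's fold rule and leaving out each array (without the block, which would leave no residual degrees of freedom). Sequences were not analysed here. The number of arrays limits the precision. Summaries used Python 3.11.15 with pandas 2.3.3, numpy 2.4.6, scipy 1.17.1 and matplotlib 3.10.9.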

Additional observations from a re-analysis of the deposited data

How the results depend on the processing

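LHCB4.2, LHCA6, LHCA1 and LHCA4 kept values below 0 under every alternative run. All 4 kept their side of the threshold under quantile normalization, median centring, the 5000 brightest probe sets and log2(signal + 50). The study's 2-fold rule passed LHCB4.2 and LHCA6, but not LHCA1 and LHCA4, whose values lie short of 2-fold. That is no separate check, since the study's list of lower transcripts, drawn from these same arrays, already held LHCB4.2 and LHCA6. Over all probe sets LHCB4.2 (-1.86) and LHCA6 (-1.18) lost their calls (adjusted p = 0.414 from limma for both). An intensity trend called LHCA1 (-0.43) and LHCA4 (-0.41) lower. Without the replicate block LHCA6 (-1.18) lost its call (adjusted p = 0.067 from limma), and the block changed no call of the other 3 genes. Without 1 array, in fits without the block where the lone array of a genotype is assumed to vary like the others, LHCB4.2 ran from -2.0 to -1.73, LHCA6 from -1.29 to -1.07, LHCA1 from -0.66 to -0.21 and LHCA4 from -0.57 to -0.25.

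The count of probe sets called lower fell from 855 to 67 without the replicate block, to 0 over all probe sets and to between 42 and 139 without 1 array. That of higher ones fell from 750 to 14, to 0 and to between 15 and 44.

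Genes that were not called could change sign. Without 1 array the log2 fold change ran from -0.91 to 0.31 for LHCB4.3, from -0.63 to 0.20 for LIL3:2, from -0.28 to 0.0024 for PSBY, from -0.12 to 0.20 for PGRL1B, from -0.59 to 0.12 for ATPC1, from -0.18 to 0.23 for GSA1, from -0.29 to 0.15 for NOL, from -0.63 to 0.30 for RCA and from -0.58 to 0.22 for GAPB. The median of LHCB4.1 and LHCB4.3 then ran from -0.72 to 0.14 and that of the electron transport and ATP synthase genes from -0.58 to 0.12. Under quantile normalization PSBY (0.0332), RCA (0.0604) and GAPB (0.0297) changed sign, as did GSA1 (-0.0132) under median centring. The causes were not tested.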
